A study of Mus musculus with 6 samples.

Results

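The imprinted growth genes H19, Meg3, Rian, Mirg, Dlk1, Peg3, Plagl1, Cdkn1c, Grb10 and Mest were followed in bulk RNA sequencing of the mouse uterus. They were taken by gene symbol from the deposited table, where the 10 symbols matched 10 of 26018 rows, and all 10 were among the 16314 genes that passed the filter on low reads. The choice used no measured value, but it was made with earlier results of these data known. The control group held 3 female mice labelled Tcf21f/f, with floxed copies of the gene for the transcription factor TCF21, and 3 conditional knockout mice, called cKO here, were labelled Tcf21d/d, with deleted copies. All were 6 weeks old, matched for body weight and untreated, with 1 library per animal, and the comparison was made to look for genes downstream of TCF21 in uterine development. The labels name neither the Cre driver nor the cells in which Tcf21 was deleted.

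Imprinted genes are transcribed mainly from the copy inherited from the mother or mainly from the copy inherited from the father. Many of them set the pace of growth before and shortly after birth and are switched down in most tissues afterwards, with skeletal muscle, endocrine tissue and brain among the exceptions for single genes. H19, Meg3, Rian and Mirg are long non-coding RNAs made from the maternal copy, Cdkn1c is also maternal, Dlk1, Peg3, Plagl1 and Mest are paternal, and Grb10 is maternal in most tissues and paternal in neurons. PLAGL1, a zinc finger factor, and the RNA of H19 have both been placed upstream of other members of this set, which is why the genes are often treated as a network.

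Several of the long RNAs are also the precursors of microRNAs, the short RNAs that pair with target messages mainly through bases 2 to 8, the seed. In the RefSeq table for GRCm38.p6, 20 microRNA hairpins with 39 mature products lie within 5 of the 10 genes on the same strand, 14 of the hairpins within Mirg. The following sequences show what each host gene carries, with the seed in capitals. The miR-453 and miR-496a-5p pair is shown because it was the only seed shared by different products of these genes. The libraries did not measure the mature microRNAs, so the values that follow are those of the host RNAs only.
H19, mmu-miR-675-5p: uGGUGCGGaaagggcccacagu
H19, mmu-miR-675-3p: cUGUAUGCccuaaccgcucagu
Meg3, mmu-miR-770-5p: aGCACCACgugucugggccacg
Rian, mmu-miR-370-3p: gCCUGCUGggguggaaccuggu
Mirg, mmu-miR-134-5p: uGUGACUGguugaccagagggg
Mirg, mmu-miR-410-3p: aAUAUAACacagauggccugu
Mirg, mmu-miR-453: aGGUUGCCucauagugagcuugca
Mirg, mmu-miR-496a-5p: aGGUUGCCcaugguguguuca
Mest, mmu-miR-335-5p: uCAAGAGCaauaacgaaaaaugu

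The libraries held 14584450 to 16579573 reads on genes, and some stood apart in their tissue makeup. Tcf21 was at 341.4, 151.9 and 144.1 across controls and at 26.0, 0 and 0 across cKO animals. The difference had a limma adjusted p of 0.0765 over all genes, and those at 0 allow values of up to 2.93 and 3.31. The limma adjusted p was 0.00583 without cKO replicate 1, 0.0301 with a pseudocount of 5 and 0.0126 with a replicate block, while edgeR gave 0.245 and DESeq2 0.252. Markers of the uterus were present at low levels, 14 mesenchymal and epithelial genes together taking 0.0243 to 0.0805% of control reads and 0.0105 to 0.0201% of cKO reads, and Foxa2, a gland marker, had no read in control replicate 3 or in any cKO library. A list of 13 skeletal muscle genes took 3.22 to 6.33% of control reads and 6.64 to 9.49% of cKO reads. Of 10 smooth muscle genes, 8 were called lower in the cKO group by limma, with a median log2 fold change of -3.50 over the list. Myh11, the smooth muscle myosin, was at 22862.3 to 41998.4 across controls and 1239.7 to 1524.1 across cKO animals. Without Des, which skeletal muscle also expresses, the list took 0.885 to 1.25% of control and 0.0977 to 0.12% of cKO reads, and the part of this difference in the values of the imprinted genes was not tested. A list of 10 neuron genes reached 0.0536% in control replicate 3 and stayed at or under 0.00861% elsewhere, and 8 liver genes reached 1.32% in control replicate 1, with 0.00853% or less elsewhere. In bulk tissue, fewer cells of a type and less RNA per cell cannot be told apart.

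None of the 10 genes passed the test between the groups (limma, Benjamini-Hochberg adjusted p under 0.05 over all genes tested), a threshold that 1.16% of tested genes passed in either direction and 0.276% passed as higher. At an unadjusted p under 0.05 there were 5 of 10, all higher in the cKO animals, against 6.11% of tested genes higher by that measure. In 4 of 10 (H19, Rian, Dlk1 and Peg3) all 3 cKO values lay above all 3 control values, which 9.04% of tested genes showed. In none did the cKO values lie below, which 10.5% showed. DESeq2 called 1 of 10, H19, as higher at an adjusted p under 0.05, against 1.87% of the genes it tested, and edgeR called none, against 0.19% called higher. The median fitted log2 fold change (cKO over control, on the log2(value + 1) scale) was 0.65 over the 10 genes and 0.002 over all tested genes. Since these genes were picked with earlier results in view, the counts describe them and are no test of the set.

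**Figure D1:**
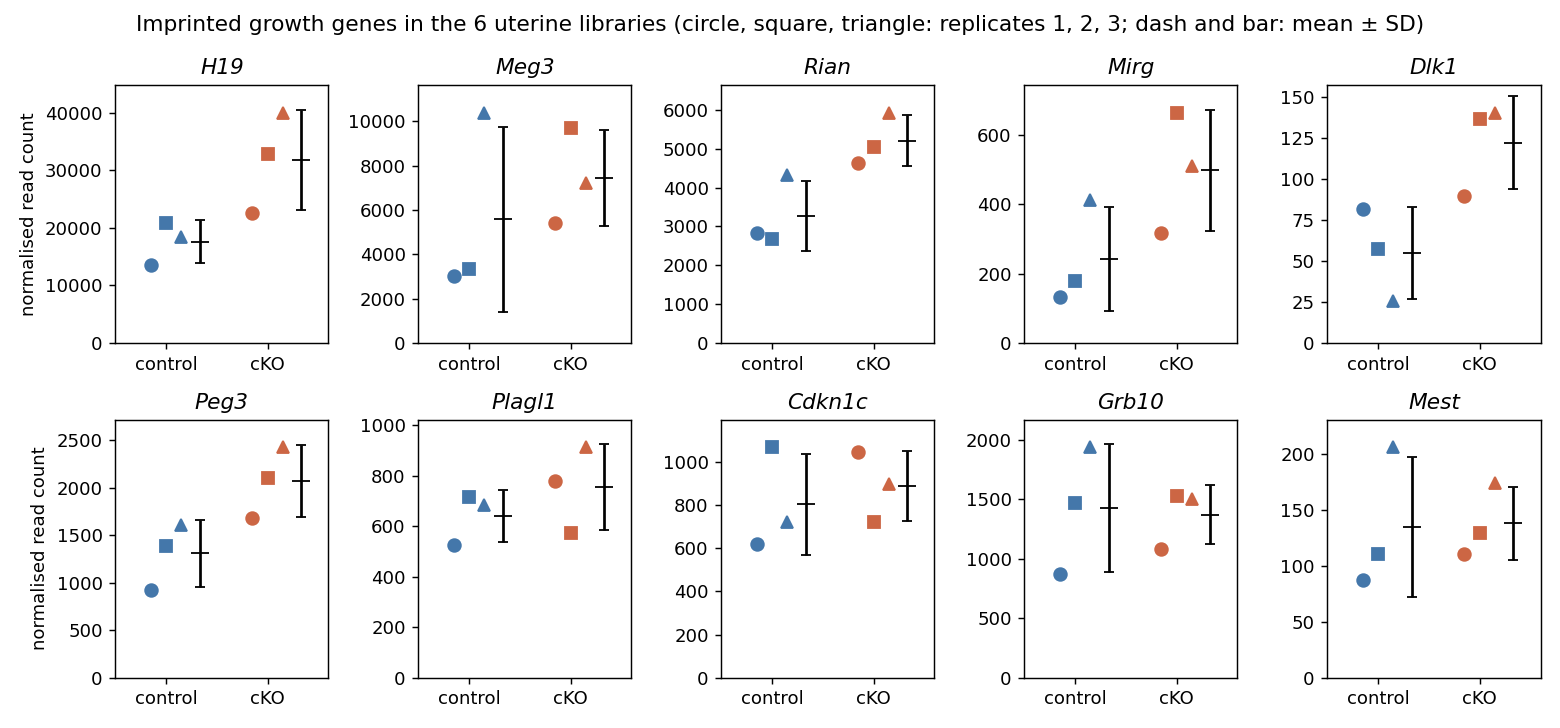
Normalised read counts of the 10 imprinted genes in each library (linear axes from 0), with controls in blue, cKO animals in orange, symbols for replicates 1 to 3 and the mean ± SD beside each group. The orange points of H19, Rian, Dlk1 and Peg3 all sit above the blue ones, while those of the other 6 genes overlap, and the high control point of Meg3 at 10388.4 is replicate 3.

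**Figure D2:**
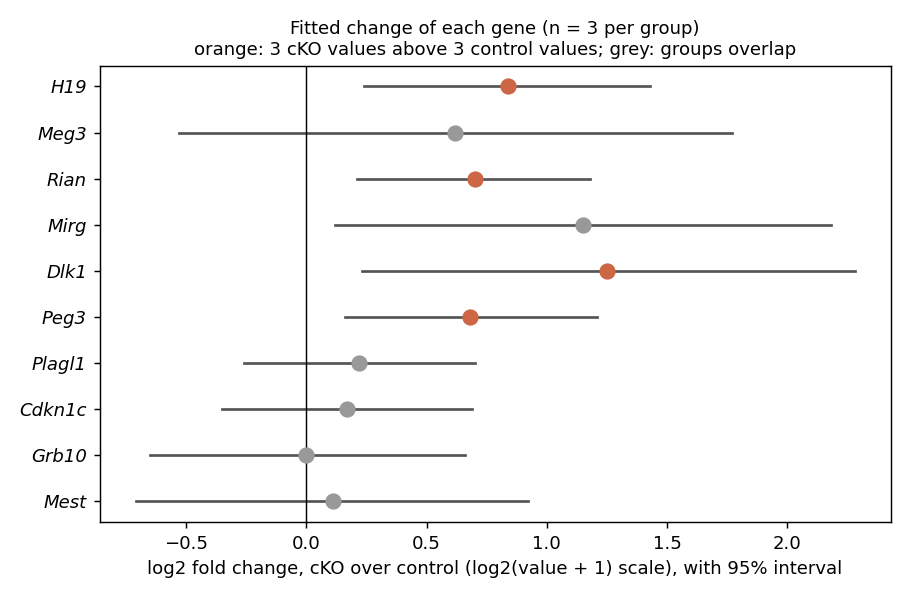
Fitted log2 fold change of each gene with its 95% confidence interval from limma (n = 3 per group). Intervals of H19, Rian, Mirg, Dlk1 and Peg3 lie above 0, before any adjustment for the number of genes, and those of Meg3, Plagl1, Cdkn1c, Grb10 and Mest include 0.

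H19 (ENSMUSG00000000031, chromosome 7, 142575529 to 142578143 on the minus strand, GRCm38) was the most abundant of the set. Its RNA is a maternally expressed growth restrainer that is abundant in fetal tissue and remains in adult skeletal muscle. Normalised counts reached 13536.2, 20853.2 and 18459.2 in controls 1 to 3, and 22646.6, 32805.2 and 40015.7 in cKO animals 1 to 3. Every cKO animal was above every control, although the gap between the highest control and the lowest cKO animal was small beside the spread within each group. The means were 17620 ± 3730 and 31820 ± 8730 (SD, n = 3), a ratio of 1.81. On the log2 scale the difference was 0.84 ± 0.26 (SE, 95% confidence interval 0.24 to 1.43), and limma gave an adjusted p of 0.195. DESeq2 gave an adjusted p of 0.0213 on the recovered reads and edgeR one of 0.206. For H19 the authors' deposited table has 0.85 and an adjusted p of 0.016, and 0.883% of genes in it were called higher. Exons of the microRNA gene Mir675 cover 3.41% of the H19 exons on the same strand.

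Skeletal muscle transcripts differed between the libraries in the same order of groups as H19. The 13 genes of that list, among them the contractile genes Acta1, Mylpf and Myh4, took 3.22, 6.33 and 4.42% of the reads of controls 1 to 3 and 6.64, 9.49 and 9.08% in cKO replicates 1 to 3. All 13 were fitted as higher in the cKO group, with a median log2 fold change of 0.90, 11 at an unadjusted p under 0.05 and none at the adjusted threshold. H19 itself took 0.0761, 0.143 and 0.132% of control reads and 0.147, 0.21 and 0.248% of cKO reads. Counted against the skeletal muscle list, H19 had 23.6, 22.6 and 29.9 reads per 1000 list reads across controls and 22.1, 22.1 and 27.3 across cKO animals. On that scale, chosen after the values were seen, the groups overlapped, with means of 25.4 ± 3.98 and 23.9 ± 3.0. The list itself took a larger share of cKO reads, so this scale lowers every gene in the cKO group: 49.2% of all tested genes had all 3 cKO values below the controls on it and 0.184% had them above. Among the 10 genes 4 were below, 6 overlapped and none were above, which is near that background. A list for muscle stem cells (Pax7, Myf5, Myod1, Vcam1, Cdh15, Chrna1 and Heyl) took 0.00872 to 0.0114% of control and 0.0139 to 0.0196% of cKO reads. Of its genes 6 were fitted as higher and 1 as lower in the cKO group. Limma called 1 of them higher at the adjusted threshold, against 0.276% of tested genes. By normalised counts, 4 of them had all cKO values above the controls, which 9.04% of tested genes showed. Chrna1 had 325 to 1185 reads per library, against 46 to 105 for Pax7. Vcam1 was at 407.2, 434.1 and 385.2 across controls and 308.5, 273.0 and 390.0 across cKO animals. The part of muscle in the values of H19 was not tested.

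**Figure D3:**
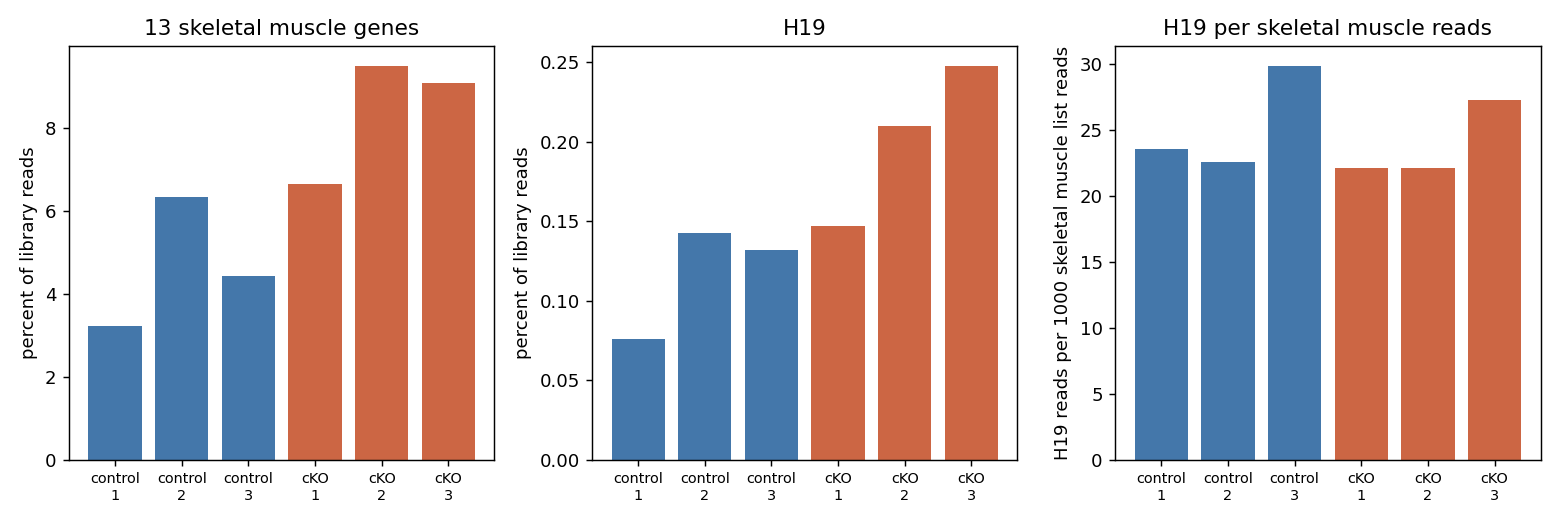
Share of library reads on 13 skeletal muscle genes (left), share on H19 (middle) and H19 reads per 1000 reads of the muscle list (right), as bars from 0 for each library, with controls in blue and cKO animals in orange. The orange bars are higher in the left and middle panels, from 6.64% and 0.147% upwards, and on the right they lie between 22.1 and 27.3 beside controls between 22.6 and 29.9.

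Igf2, the paternally expressed growth factor gene that shares enhancers with H19, lies 72.6 kb away and was close to undetected. Its normalised read counts were 0, 5.4 and 8.0 across controls and 4.6, 2.0 and 8.8 across cKO animals, and it did not pass the filter on low reads. The 0 in control replicate 1 allows a value of up to 3.66. Another annotated gene, Gm49394, covers 62.8% of the Igf2 exons on the same strand, and no source used here says how reads shared by overlapping genes were counted. The Igf2 values may therefore be too low.

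The Dlk1-Meg3 domain on chromosome 12 holds 4 of the 10 genes, all on the plus strand, in the order Dlk1, Meg3, Rian and Mirg. Dlk1 is the paternal protein-coding gene, and the other 3 are maternal RNAs often described as parts of 1 long transcription unit. The annotated gaps between neighbours were 77.7, 32.2 and 68.0 kb. RefSeq promoters were found for 8 of the 10 genes, as 12 windows of 250 bases before a start site. Since Dlk1 and Rian were among the genes with separate groups and Meg3 heads the maternal RNAs, their windows are printed here, with capitals where they match CANNTG, the E-box bound by basic helix-loop-helix factors such as TCF21, or TGACGTCA, the cAMP response element. The windows lie at chr12:109452573-109452822 (Dlk1), chr12:109540746-109540995 (Meg3, window 1) and chr12:109603695-109603881 (Rian, without its last bases, which lie in Gm27350), all GRCm38.p6, plus strand.
Dlk1: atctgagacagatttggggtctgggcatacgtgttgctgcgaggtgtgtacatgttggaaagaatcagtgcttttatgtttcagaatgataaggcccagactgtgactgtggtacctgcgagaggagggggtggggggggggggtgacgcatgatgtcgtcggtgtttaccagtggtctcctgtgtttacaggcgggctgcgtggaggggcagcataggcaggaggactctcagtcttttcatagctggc
Meg3: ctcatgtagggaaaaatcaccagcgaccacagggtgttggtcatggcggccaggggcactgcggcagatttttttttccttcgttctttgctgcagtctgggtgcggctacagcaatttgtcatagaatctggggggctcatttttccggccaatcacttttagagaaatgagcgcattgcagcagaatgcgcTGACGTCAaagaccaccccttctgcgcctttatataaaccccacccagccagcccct
Rian: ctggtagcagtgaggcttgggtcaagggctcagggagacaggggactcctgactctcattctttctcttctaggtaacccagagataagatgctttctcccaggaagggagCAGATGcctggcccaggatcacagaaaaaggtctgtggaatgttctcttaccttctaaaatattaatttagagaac

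The Dlk1 window held no E-box and no cAMP response element. The printed Meg3 window held TGACGTCA, starting 57 bases before the start site, and no E-box. Window 2 of Meg3, not printed, held 1 E-box, CATGTG, starting 172 bases before its start site, and no TGACGTCA. The Rian window held 1 E-box, CAGATG, starting 139 bases before its start site. Across all 32851 windows of this length, on both strands since the patterns are their own reverse complement, 66.2% held CANNTG, 13% held its form CAGCTG and 1.55% held TGACGTCA, a motif searched only after the windows had been read. Of the 12 windows of these genes, 8 held CANNTG and 1, a window of Mest, held CAGCTG, and Peg3 held TGACGTCA starting 178 bases before its start site. Windows 2 and 3 of Mest overlap almost wholly, so the same CACATG is counted in both. Some start sites lie within the annotated gene, such as those of Mirg and Plagl1, 5217 and 30328 bases from its start. These matches are letters in the sequence and say nothing of binding.

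Rian (ENSMUSG00000097451, chromosome 12, 109603940 to 109661716), a nuclear RNA that carries small nucleolar RNAs and microRNAs, was higher in every cKO animal than in any control. It was at 2818.9, 2679.1 and 4316.6 across controls and 4640.4, 5058.0 and 5932.3 across cKO animals. The control replicate with the high value, replicate 3, came close to the lowest cKO animal. Its fitted difference was 0.70 ± 0.22 (log2, SE; 95% interval 0.21 to 1.18) at a limma adjusted p of 0.187. Short matches of at least 95% identity, up to 169 bases long, tie Rian transcripts to those of 59 other genes, so reads there are uncertain.

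Meg3 (ENSMUSG00000021268, chromosome 12, 109541001 to 109571726), a growth-restraining RNA, varied more among controls than between the groups. It was at 3020.1, 3319.9 and 10388.4 across controls and 5414.5, 9711.3 and 7190.8 across cKO animals. Control replicate 3 was above all 3 cKO animals, and control replicates 1 and 2 were below all of them. On the log2 scale the difference was 0.62 ± 0.49 (95% interval -0.53 to 1.77), at a limma adjusted p of 0.645. It was 1.19 without control replicate 3 (limma adjusted p = 0.0615), 0.30 and 0.37 without control replicates 1 and 2, and 0.41 without cKO replicate 2. Exons of the antisense gene Gm26906 cover 6.79% of the Meg3 exons, and counting by strand is not stated. Transcripts of another gene, Gm27000, match those of Meg3 over up to 842 bases at 100% identity, so reads there are uncertain.

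Mirg (ENSMUSG00000097391, chromosome 12, 109729764 to 109749460), the host of 14 microRNA hairpins at the far end of the domain, was lower than Meg3 and Rian. Within each group Mirg ordered the libraries as Meg3 did, but not as Rian did. It was at 131.7, 179.7 and 412.8 across controls and 316.9, 664.1 and 510.5 across cKO animals. The groups overlapped through control replicate 3, which was above cKO replicate 1. Its log2 fold change was 1.15 ± 0.45 (limma adjusted p = 0.315), and without control replicate 3 it was 1.62 with a limma adjusted p of 0.0494, in a fit where 0.344% of genes were called higher. With control replicates 1 and 3 both left out, an alternative chosen after seeing the data, Rian was the one called member of the set (0.95, limma adjusted p = 0.0242), where 1.5% of genes were called higher.

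Control replicate 3 was also the library with the largest share of neuron transcripts, by the list of 10 neuron genes. Its genes made up 0.00275, 0.00861 and 0.0536% of reads in controls 1 to 3 and 0.00404, 0.0043 and 0.00306% in cKO replicates 1 to 3. All 3 cKO shares were above that of control replicate 1. Within the list, Snap25, a protein of the synaptic release machinery, had normalised counts of 19.5, 98.0 and 693.0 in controls 1 to 3. It was at 0 in all 3 cKO libraries. Uchl1, by contrast, was at 152.4, 346.9 and 1448.3 across controls and 337.3, 436.9 and 266.3 across cKO animals. All 7 tested genes of the list were fitted as lower in the cKO group. The part of neurons in the values of Meg3, Rian and Mirg was not tested.

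Ratios within the domain differed between libraries as well. Per length, Rian was at 0.926, 0.801 and 0.412 of Meg3 in control replicates 1 to 3 and 0.850, 0.517 and 0.818 in cKO replicates 1 to 3. The lowest ratio belonged to control replicate 3, and the groups overlapped. Mirg was at 0.108, 0.134 and 0.0986 of Meg3 per length across controls and 0.145, 0.170 and 0.176 across cKO animals. All 3 cKO ratios of Mirg were above the controls, an observation made after seeing the values and without a test.

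Dlk1 (ENSMUSG00000040856, chromosome 12, 109452823 to 109463336) encodes a transmembrane protein related to Notch ligands that holds back adipocyte differentiation and takes part in muscle growth and regeneration. It was at 81.7, 57.5 and 25.8 across controls and 89.2, 136.5 and 140.3 across cKO animals. All cKO animals were above all controls, but by little between control replicate 1 and cKO replicate 1, and control replicate 3, highest for the 3 maternal RNAs, was lowest for Dlk1. The difference of 1.25 ± 0.45 (log2, SE; limma adjusted p = 0.264) was 0.79 without control replicate 3 (adjusted p = 0.369). Per length, Meg3 exceeded Dlk1 by 11.6, 18.1 and 126 times in control replicates 1 to 3 and by 19, 22.2 and 16 times in cKO replicates 1 to 3. The wide control range came from replicate 3.

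**Figure D4:**
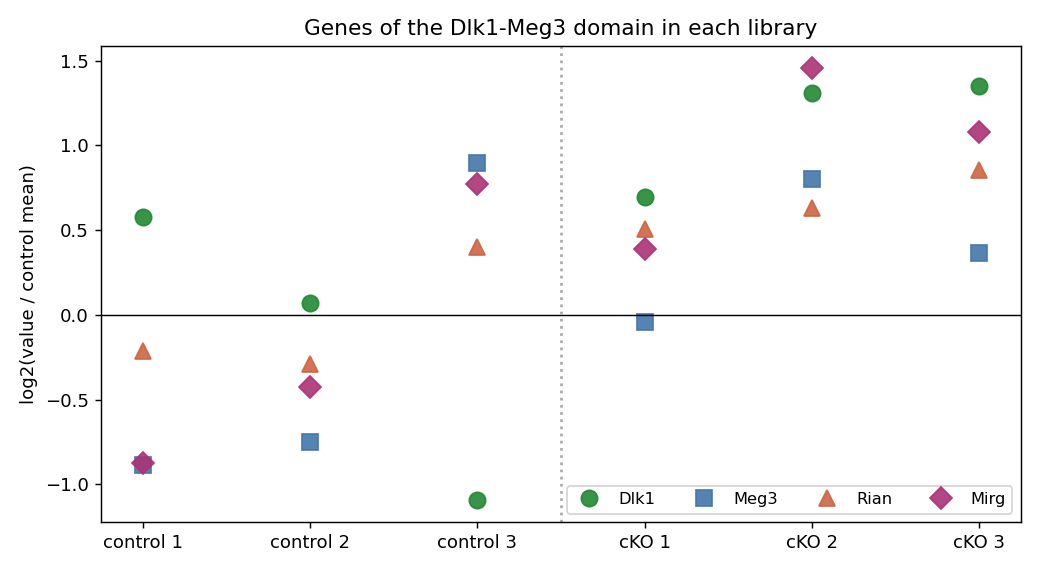
Dlk1, Meg3, Rian and Mirg in each library as log2 of the value over the control mean, with a dotted line between the groups. In control replicate 3 the 3 maternal RNAs lie above the control mean, at 1.86 (Meg3), 1.32 (Rian) and 1.71 (Mirg) times it, and Dlk1 lies below it at 0.469 times.

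Peg3 (ENSMUSG00000002265, chromosome 7, 6703892 to 6730431, minus strand), a paternally expressed zinc finger protein that acts in growth, maternal behaviour and muscle stem cells, had separate groups. It was at 925.4, 1392.1 and 1612.9 across controls and 1677.2, 2107.2 and 2426.4 across cKO animals. The highest control, replicate 3, was just below the lowest cKO animal. A log2 difference of 0.68 ± 0.23 had a 95% interval from 0.16 to 1.21 and a limma adjusted p of 0.236, and it was 0.45 without control replicate 1. Counted against the skeletal muscle list, Peg3 had 1.61, 1.51 and 2.62 reads per 1000 across controls and 1.64, 1.42 and 1.66 across cKO animals, which overlap.

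Plagl1 (ENSMUSG00000019817, chromosome 10, 13060504 to 13131694), which encodes the zinc finger factor that heads the network, was at 524.3, 715.4 and 684.1 across controls and 778.7, 573.4 and 912.7 across cKO animals. The groups overlapped, since cKO replicate 2 was below control replicates 2 and 3. The log2 fold change was 0.22 ± 0.21, with a 95% interval from -0.26 to 0.70 and a limma adjusted p of 0.712. It ranged from 0.07 without cKO replicate 3 to 0.41 without cKO replicate 2. Among these genes, Plagl1 had the smallest control spread, a coefficient of variation of 16.0%.

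Cdkn1c, Grb10 and Mest had overlapping groups and intervals on both sides of 0. Cdkn1c (chromosome 7, 143458339 to 143461050), the cell cycle inhibitor p57, was at 619.4, 1067.7 and 723.3 across controls and 1048.1, 723.5 and 897.2 across cKO animals. Its log2 fold change was 0.17 ± 0.23 (95% interval -0.35 to 0.69, limma adjusted p = 0.81), at 0.00 without control replicate 1 and 0.39 without control replicate 2, and the interval of the fold change, 0.784 to 1.61, leaves room for a change in either direction. Antisense exons of Gm44732 cover 30.7% of the Cdkn1c exons, and counting by strand is not stated.

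Grb10 (chromosome 11, 11930508 to 12038683), an adaptor that dampens insulin and insulin-like growth factor receptor signals, was at 869.3, 1470.3 and 1936.8 across controls and 1082.5, 1530.0 and 1500.5 across cKO animals. The 3 cKO values lay within the control range. Its fold change had a 95% interval from 0.635 to 1.58 (limma adjusted p = 0.999), the ratio of the means was 0.962, and the fitted sign depended on the setting. Mest (chromosome 6, 30723547 to 30748465), an enzyme-like protein of growing mesoderm and adipose tissue, was at 87.8, 110.5 and 206.4 across controls and 110.6, 129.7 and 174.6 across cKO animals. Its cKO values also lay within the control range, with control replicate 3 highest, and the fold change had an interval from 0.612 to 1.89 (limma adjusted p = 0.932). Mest reads are uncertain in part, because Copg2 covers 23.1% of its exons on the opposite strand. The fitted sign of Mest turned without control replicate 1 (-0.15) and without cKO replicate 3 (-0.07).

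Levels per length were compared between the genes as normalised counts per kilobase of exon. The exon length joins all annotated transcripts, 18089 bases for Meg3 and 2039 for Cdkn1c, so the order and the ratios between genes depend on it. Before division by length, the control mean was 5576 for Meg3 and 803.5 for Cdkn1c. Per kilobase, H19 had 7160 ± 1520 in controls (SD, n = 3), 18.2 times the next gene, Cdkn1c, at 394 ± 115. Then came Meg3 at 308 ± 231, Rian at 179 ± 49.8, Grb10 at 157 ± 58.9, Peg3 at 98.3 ± 26.3 and Plagl1 at 82.0 ± 13.1. Mest at 34.2 ± 16.0, Mirg at 33.1 ± 20.6 and Dlk1 at 9.72 ± 4.95 were lowest. Of the 9 pairs of neighbours in this order, 3 had control values that did not overlap, H19 over Cdkn1c, Plagl1 over Mest and Mirg over Dlk1. The other 6 pairs overlapped, although within each library Meg3 was above Rian and Peg3 above Plagl1 in all 3 controls and all 3 cKO animals, and Grb10 was above Peg3 in all 3 controls and 1 cKO animal. In cKO animals the order changed at the middle and the low end, with Peg3 (155 ± 28.2) beside Grb10 (151 ± 27.5) and Mirg (68.2 ± 23.9) above Mest (35.1 ± 8.33) in all 3 libraries. H19 held 47.6 to 67.0% of the reads of the 10 genes in every library.

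The tested genes most like H19, Meg3 and Peg3 were found by the root-mean-square distance between log2 values centred per gene over the 6 libraries, a measure that includes the difference between the groups. Nearest to H19 were Xirp2, an actin-binding protein of striated muscle (distance 0.089), Neurl2, a ubiquitin ligase adaptor (0.101), and Myo18b, a myosin of striated muscle (0.113), while the median of tested genes lay at 0.600. Xirp2 was at 4588.1, 7058.6 and 6578.0 across controls and 6819.4, 10676.7 and 12098.8 across cKO animals. Nearest to Meg3 were Begain (0.179), Cabp1 (0.180) and Mzb1 (0.201), with a median of 0.769 over tested genes. Begain is itself an imprinted gene, 385 kb from Dlk1 on the same chromosome, and was at 71.9, 86.3 and 194.8 across controls and 120.8, 182.3 and 145.8 across cKO animals. Like Meg3, it was highest in control replicate 3. Nearest to Peg3 were Ppip5k1 (0.0902), an inositol phosphate kinase, Itgb1bp2 (0.0909), the muscle protein melusin, and Fndc1 (0.101), against a median of 0.541.

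Other imprinted genes were read from a list drawn from general knowledge, and the values do not show which are imprinted in the uterus. The list held 49 genes, of which 48 were in the table and 41 were tested. Limma called none of them, edgeR none and DESeq2 2, both lower, where it called 3.83% of all genes lower, and 7 had an unadjusted p under 0.05, against 13.7% of all tested genes in either direction. Of the 41, 16 were fitted as higher and 25 as lower in the cKO group, with a median log2 fold change of -0.19. Over all tested genes 50.3% were fitted as higher. In 3 of the 41 all cKO values lay above the controls and in 7 they lay below, beside the 9.04% and 10.5% of all tested genes given above.

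Among them Osbpl5, a lipid transfer protein gene on the Cdkn1c side of chromosome 7, was at 774.2, 1063.2 and 1051.6 across controls and 504.6, 655.3 and 638.6 across cKO animals. Its groups did not overlap, and its log2 fold change was -0.68 ± 0.19 (SE; limma adjusted p = 0.154, DESeq2 adjusted p = 0.0449). Nnat, a paternally expressed membrane protein gene of neurons and endocrine cells, was at 37.8, 310.1 and 204.6 across controls and 40.9, 39.0 and 30.9 across cKO animals. Control replicate 1 lay inside the cKO range, and the log2 fold change of Nnat was -1.85 ± 0.71 (limma adjusted p = 0.3). Without control replicate 1 it was -2.75 with a limma adjusted p of 0.00574, in a fit that called 347 genes lower. For Nnat, the fold change in the authors' deposited table is -2.32 on the log2 scale (their adjusted p = 0.00343). Ndn, a growth suppressor gene of neurons and mesenchyme, was at 824.2, 801.7 and 1455.5 across controls and 670.9, 701.1 and 533.7 across cKO animals (limma adjusted p = 0.287), and Peg13, a non-coding RNA within Trappc9, at 449.9, 657.9 and 885.2 and at 384.7, 395.9 and 428.7 (0.262). Both had separate groups, and their highest value was control replicate 3.

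Airn, the RNA that silences paternal Igf2r, was at 256.0, 178.8 and 242.9 across controls and 329.9, 336.4 and 348.0 across cKO animals, with all cKO values above and a log2 fold change of 0.60 ± 0.21 (limma adjusted p = 0.246). Igf2r, the receptor that clears insulin-like growth factor 2, had a log2 fold change of 0.23 ± 0.21 with overlapping groups. Gnas, the stimulatory G protein alpha subunit gene, had 0.23 ± 0.17, with antisense exons over 22.0% of its own. Cobl, an actin nucleator gene beside Grb10, was at 495.0, 558.1 and 580.9 across controls and 596.5, 902.0 and 897.2 across cKO animals. Its groups were separate by a small gap, with a limma adjusted p of 0.283.

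**Figure D5:**
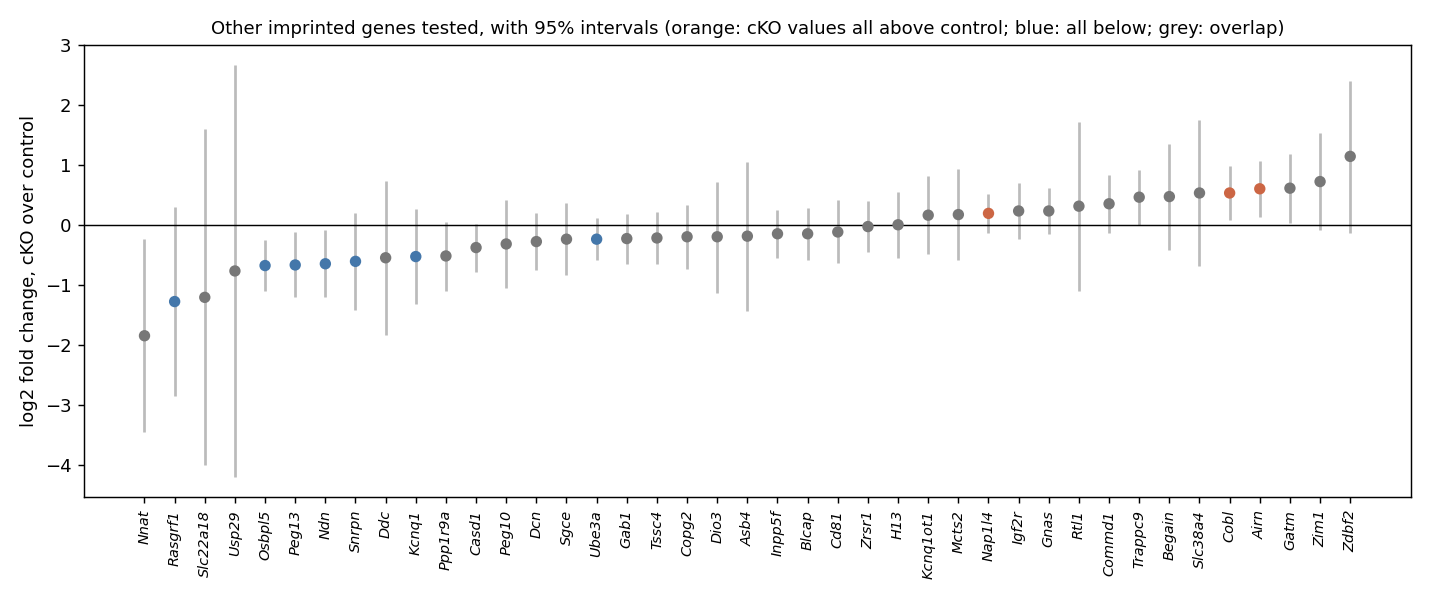
Fitted log2 fold change of the 41 other imprinted genes tested, in rising order, with 95% limma intervals (n = 3 per group) and colours for the 3 genes with all cKO values above the controls and the 7 with all below. The points run from -1.85 for Nnat upwards, and 25 of 41 lie below 0.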

How the data were processed

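Uterine RNA was extracted with Trizol, per the labels' protocols. Alignment and counting tools named in the submitters' processing notes are HISAT2, SAMtools and featureCounts (no versions), with GRCm39 as the build. The table's coordinates were read as GRCm38, because those of 25239 out of 25988 genes equal GENCODE vM21. No source used here states how strand or multiply matching reads were handled.

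The authors deposited a normalised signal per gene and library. Dividing each column by its smallest step gave whole reads for 100% of values (within 0.01 reads), so the signal is a read count over a library-wide factor, and the recovered reads served for filters and count tests. Log2 fold changes and p-values in the deposited table are the authors' own, and no source used here names the tool.

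The design foresaw edgeR for raw counts and limma otherwise, so limma 3.58.1 (R 4.3.3, trend and robust) was fitted to log2(value + 1) over genes passing edgeR 4.0.16 filterByExpr, without covariates, with Benjamini-Hochberg adjustment over all genes and a threshold of 0.05. The added 1 shrinks fold changes of low genes. On the recovered reads edgeR called 151 genes, against 190 by limma. DESeq2 1.42.0, limma-voom, other scalings, filters, pseudocounts (0.5 and 5), a replicate block and leaving out libraries were alternatives. Nothing in the labels ties equal replicate numbers across groups. Limits from a count of 0 use 3 reads and cover counting error only.

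Members, gene lists and motifs were chosen with earlier results of these data known. Named were the 10 genes, Tcf21, Igf2, Igf2r, Gnas, called genes and the 6 others with the smallest p from the imprinted list, and the 3 genes most like H19, Meg3 and Peg3. Gm49394, Gm26906, Gm27000, Gm44732, Copg2, Mir675, Foxa2, Snap25, Uchl1, Chrna1, Vcam1, Myh11 and Des were named after their values, overlaps or matches were seen. In the marker lists not given in full in the report, blood endothelium took 0.0734 to 0.107% of control and 0.087 to 0.108% of cKO reads, pericytes 0.0507 to 0.175% and 0.0545 to 0.0681%, smooth muscle with Des 1.23 to 1.76% and 0.515 to 0.688%, fibroblasts 0.785 to 1.25% and 1.04 to 1.41%, adipocytes 0.0326 to 0.0608% and 0.0493 to 0.063%, Schwann cells 0.028 to 0.0484% and 0.0474 to 0.0705%, macrophages 0.085 to 0.221% and 0.183 to 0.242%, and intestinal epithelium 0.00282 to 0.013% and 0.00261 to 0.0043%. Exon overlaps came from GENCODE vM21, near-identical transcripts (at least 95% over at least 100 bases) from blastn 2.17.0, and sequences from the RefSeq tables for GRCm38.p6.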

Additional observations from a re-analysis of the deposited data

How the results depend on the processing

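Across 16 alternatives, which reuse the same 6 libraries, 10 of 160 fits of the members changed sign, all for Cdkn1c, Grb10 or Mest. The other 7 genes are those without such a change. Their 112 of 112 fits above 0 follow from that choice and are no test. Log2 fold changes ranged from 0.57 to 1.06 for H19, 0.30 to 1.19 for Meg3, 0.57 to 0.95 for Rian and 0.80 to 1.62 for Mirg. For Dlk1 the range was 0.79 to 1.61, for Peg3 0.45 to 0.85 and for Plagl1 0.05 to 0.41. Adjusted p values of H19 ran from 0.0213 (DESeq2) to 0.597. Grb10 changed sign with edgeR (-0.06), DESeq2 (-0.06) and limma-voom (-0.01) and lay between -0.32 and 0.26 with 1 library left out. Mest lay between -0.15 and 0.46 with 1 library left out. With control replicates 1 and 3 both left out, which assumes that the lone control varies like the cKO group, Cdkn1c was at -0.28, Grb10 at -0.12 and Igf2r at -0.22. The cause was not tested.

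Members called higher numbered 1 with DESeq2 (H19), 1 with control replicates 1 and 3 left out (Rian), and 0 to 1 with 1 library left out (Mirg without control replicate 3). None was called lower in any of these fits. Other imprinted genes called lower numbered 2 with DESeq2 (Nnat and Osbpl5), which called 3.83% of its tested genes lower. With 1 library left out they numbered 0 to 3, and those called higher 0 to 1 (Slc38a4, without control replicate 1, at 1.15). The highest counts came without control replicate 1, where 347 of all genes were called lower and 117 higher. The share of tested genes was not worked out there. With both controls left out, Nnat was at -3.05. Over all genes, 145 were lower and 45 higher, against 584 and 285 with DESeq2, 82 and 19 with limma-voom, and 504 and 271 without control replicates 1 and 3. Without a filter on low values 82 were higher. With 1 library left out, 42 to 347 were lower and 1 to 117 higher.

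With the replicate number as a block, 149 genes were lower and 34 higher, no member was called, and Tcf21 (-6.03) had a limma adjusted p of 0.0126. Deviations of same-numbered libraries from their group means correlated at 0.00843, -0.176 and 0.0438 across genes. Differently numbered libraries correlated at -0.121 to 0.0985. With so few animals, these values cannot show whether the numbers pair them. With 3 animals per group, the 95% intervals of Grb10 and Mest still allow changes of over 1.5-fold.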
